A study of Sus scrofa with 12 samples.

Results

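The 5 genes described here act in the hypothalamic arm of the thyroid axis: TRH, which encodes thyrotropin-releasing hormone, TRHDE, which encodes the enzyme that degrades it, DIO2, which encodes the type 2 iodothyronine deiodinase, and THRA and THRB, which encode the thyroid hormone receptors. The members were all probe sets (groups of array probes read as a single value) whose gene symbol in the platform annotation equals the name of a gene of the set, whatever their values. This gave 15 of 47722 probe sets: 1 for TRH, 3 for TRHDE, 5 for DIO2, 2 for THRA and 4 for THRB. All 5 genes had at least 1 probe set.

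RNA came from the hypothalamus of 12 pigs (Sus scrofa), each on its own Affymetrix Snowball array, a pig array with probes along the whole transcript. The high feed efficiency group held 6 pigs and the low group 6, each with 3 males and 3 females, and all pigs were 140 days old. Feed efficiency describes how well an animal converts feed into growth, and no further treatment, strain or genotype is named in the labels. The pig identifiers fall into a lower run of 8 pigs, 4 of each group and including all 6 males, and an upper run of 4 females, 2 of each group. What the runs stand for is not given in the sources used here.

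TRH is a short peptide made by neurons of the paraventricular nucleus and released into the pituitary portal blood, where it drives secretion of thyrotropin and, through it, of thyroid hormone. The peptide is cleaved outside cells by the enzyme encoded by TRHDE, a membrane peptidase that in rodents is also made by tanycytes, the cells lining the floor of the third ventricle. Glial type 2 deiodinase turns the prohormone thyroxine into the active hormone triiodothyronine. Triiodothyronine then acts through the nuclear receptors encoded by THRA and THRB, and in rodents receptors encoded by THRB carry much of the negative feedback on TRH.

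Values are log2 signals. The array medians lay between 4.35 and 4.42, and correlations between arrays between 0.974 and 0.982, so no array stood apart. The means of the 69 probe sets placed on the array as background controls ran from 1.30 to 7.49. A signal inside that range cannot be told from background by its height alone. The background means depended on the number of G and C bases in the probe: 1.39 at 3 such bases, 1.87 at 13 and 7.42 at 22. The members were not set against controls of like base content, so the range used here is that of all controls together. Many markers of brain cells were bright: 7 of 7 oligodendrocyte, 8 of 10 astrocyte and 6 of 9 neuron markers had means above the highest background probe set. So did 4 of 5 microglia markers and 5 of 10 markers of hypothalamic nuclei. Fewer did so among thalamus markers (3 of 8), tanycyte and ependymal markers (2 of 9) and endothelial markers (2 of 8). None of the 7 choroid plexus markers and none of the 8 anterior pituitary markers did so. In tissue RNA of this kind, fewer cells of a type and less RNA per cell cannot be told apart.

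TRH was measured by SNOWBALL_015730_st and its signal was above the highest background probe set in 12 of 12 pigs. The margin was narrow, since the lowest pig read 7.52 and that background probe set had a mean of 7.49. Its level was 7.52 at the lowest, 7.75 at the median and 8.02 at the highest in the high feed efficiency pigs, and 7.57, 7.69 and 7.75 in the low pigs. The ranges overlapped, with every low pig inside the range of the high pigs. The highest value, 8.02, was that of a female, high replicate 6. The means were 7.75 ± 0.18 (SD, n = 6) and 7.67 ± 0.07 (SD, n = 6), so the high pigs were the more spread. The low-minus-high difference was -0.08 ± 0.09 (SE) on the log2 scale, with a 95% interval from -0.27 to 0.12 and a limma adjusted p of 0.890. Without high replicate 6 the difference came to -0.02.

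TRHDE had 3 probe sets, and their signals lay inside the background range. The brightest, SNOWBALL_007385_st, read 5.22, 5.57 and 5.71 (lowest, median, highest) in the high feed efficiency pigs and 5.58, 5.64 and 5.95 in the low pigs. The 3 high males stood below every low pig and the 3 high females lay among the low pigs, so the groups overlapped. The means were 5.54 ± 0.17 (SD, n = 6) and 5.70 ± 0.14 (SD, n = 6). The difference, 0.15 ± 0.09 (SE), had a 95% interval from -0.05 to 0.35 and a limma adjusted p of 0.819, and it fell to 0.09 without high replicate 3. For SNOWBALL_040324_st the values were 4.44, 4.80 and 5.36 in the high pigs and 5.0, 5.11 and 5.25 in the low pigs. The low pigs were close together and lay inside the wide range of the high pigs. The high group had a mean of 4.88 ± 0.38 (SD, n = 6) and the low group 5.13 ± 0.10 (SD, n = 6), a difference of 0.24 ± 0.15 (SE) with a limma adjusted p of 0.821. It came to 0.12 without high replicate 4 and to 0.33 without high replicate 6. The probe set SNOWBALL_039282_st had a mean of 2.30, below the limit of 2.43 for testing.

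DIO2 had 5 probe sets, all with signals inside the background range. SNOWBALL_020911_s_st, the brightest, read 4.67, 4.81 and 5.04 in the high feed efficiency pigs and 4.35, 4.81 and 5.39 in the low pigs. The medians were the same to the second decimal, and the low group held both the highest pig, low replicate 2, and the lowest, low replicate 3. The high group had a mean of 4.84 ± 0.17 (SD, n = 6) and the low group 4.84 ± 0.39 (SD, n = 6), and the difference was -0.0029 ± 0.16 (SE) with a 95% interval from -0.36 to 0.35 and a limma adjusted p of 0.998. The 3 other tested probe sets of DIO2 were dim. Their differences were 0.29 ± 0.20 (SE) for SNOWBALL_043583_st, 0.09 ± 0.17 for SNOWBALL_028875_st and 0.01 ± 0.14 for SNOWBALL_036715_st, with limma adjusted p-values of 0.835, 0.933 and 0.991. The difference of SNOWBALL_043583_st came to 0.16 without low replicate 5 and to 0.40 without low replicate 4, and that of SNOWBALL_028875_st to 0.19 without low replicate 4 and to -0.0245 without low replicate 1. SNOWBALL_038943_st had a mean of 2.18 and was too dim to be tested.

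THRA had steady signals. Both of its probe sets were above the highest background probe set in 12 of 12 pigs, and their SDs within groups were 0.10 each, smaller than those of all but 7.66% of tested probe sets for SNOWBALL_014562_st and all but 7.55% for SNOWBALL_014500_s_st. SNOWBALL_014562_st read 10.43, 10.70 and 10.75 in the high feed efficiency pigs and 10.41, 10.59 and 10.63 in the low pigs. The upper end was held by high pigs, but the females high replicate 4 and high replicate 6 lay among the low pigs. The means were 10.65 ± 0.12 (SD, n = 6) and 10.54 ± 0.09 (SD, n = 6), a difference of -0.10 ± 0.07 (SE) with a 95% interval from -0.27 to 0.06 and a limma adjusted p of 0.836. SNOWBALL_014500_s_st read 9.0, 9.20 and 9.33 in the high pigs and 9.04, 9.09 and 9.14 in the low pigs, overlapping through the females high replicate 4 and high replicate 5. Its difference was -0.11 ± 0.07 (SE) with a limma adjusted p of 0.826, so both probe sets leaned the same way and neither passed the threshold. The differences were nearest to 0 at -0.0666 without low replicate 2 and, for the latter probe set, at -0.0702 without high replicate 6.

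THRB had 4 probe sets, with mean signals that did not exceed the highest background probe set. The brightest, SNOWBALL_015185_st, read 7.13, 7.41 and 7.46 in the high feed efficiency pigs and 7.27, 7.35 and 7.47 in the low pigs, and the groups overlapped, with the females high replicate 4 and high replicate 6 below every low pig. Its means were 7.35 ± 0.13 (SD, n = 6) and 7.36 ± 0.07 (SD, n = 6), its difference 0.0092 ± 0.08 (SE), its 95% interval from -0.16 to 0.18 and its limma adjusted p 0.990. SNOWBALL_027474_st and SNOWBALL_022033_st differed by 0.03 ± 0.08 (SE) and 0.12 ± 0.11 (SE), with limma adjusted p-values of 0.964 and 0.867, and the latter came to 0.0465 without low replicate 4. SNOWBALL_045006_st varied most between pigs, with a within-group SD of 0.62. It ranged from 4.31 in high replicate 5 to 6.82 in low replicate 5, and its difference of 0.47 ± 0.32 (SE; limma adjusted p 0.826) came to 0.17 without high replicate 5 and to 0.67 without high replicate 6.

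**Figure D1:**
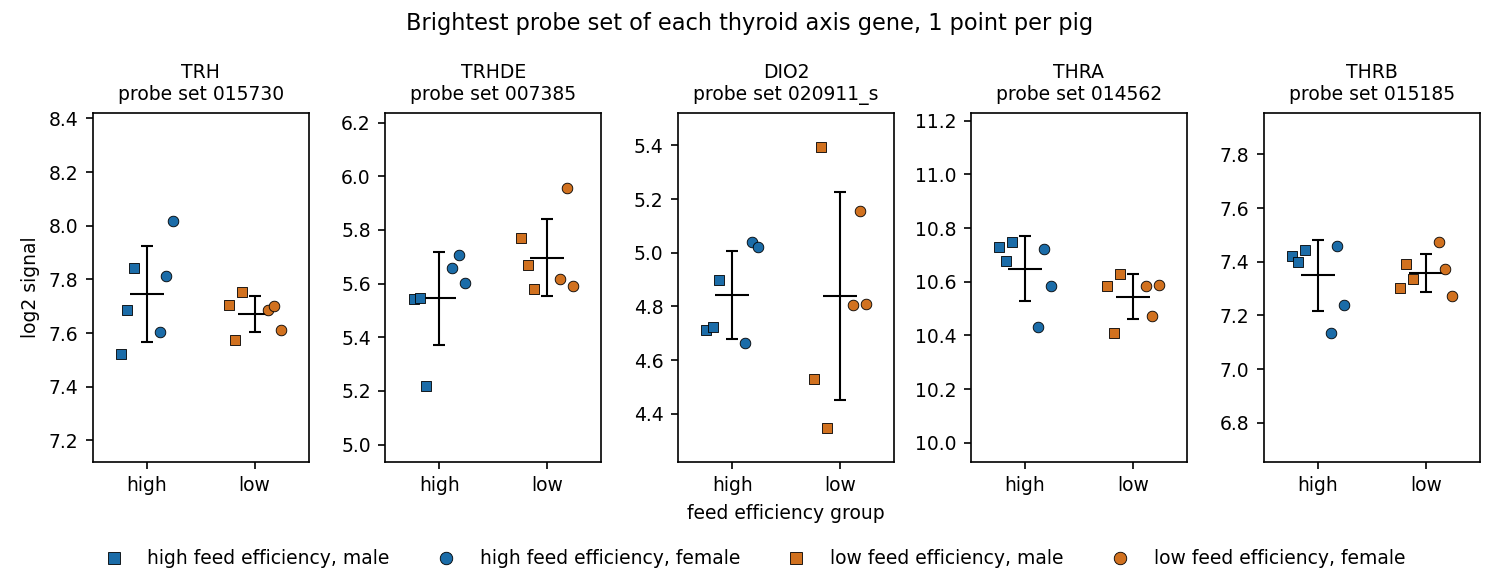
Log2 signal of the brightest probe set of TRH, TRHDE, DIO2, THRA and THRB in each pig, by feed efficiency group and sex, with group means. The groups overlap for each of the 5 genes, and DIO2 spreads from 4.35 to 5.39 in the low feed efficiency group.

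None of the 13 tested member probe sets passed the threshold for feed efficiency, an adjusted p below 0.05 over the 35791 probe sets tested, and over that whole table limma called 0 probe sets (0%). At an unadjusted p below 0.05 the count was 0 of the 13, against 2201 of 35791 (6.15%) in the table. In none of the 15 member probe sets were the groups free of overlap, against 0.282% of tested probe sets. The member differences were above 0 in 9 of 13 probe sets, with a median of 0.03, and in 49.4% of the whole table, with a median of -0.0023. The exact permutation test of feed efficiency within sex (two-sided) gave p = 0.365 for TRH, 0.125 for TRHDE, 1 for DIO2, 0.125 for THRA and 0.875 for THRB, each for the brightest probe set. The 95% intervals of 11 of the 13 stayed within a 1.5-fold change either way, as did those of 79.3% of tested probe sets. For signals inside the background range, such an interval limits the change of the signal and not that of the transcript.

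**Figure D2:**
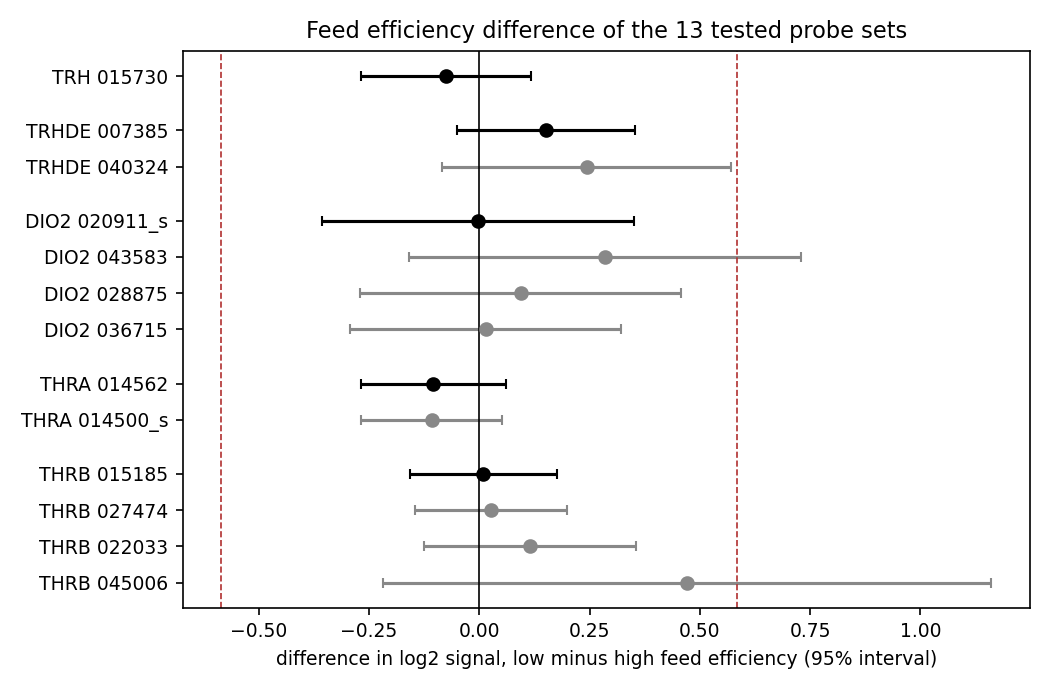
Low-minus-high feed efficiency difference in log2 signal for the 13 tested probe sets, with limma's 95% interval. Every interval includes 0, and the widest, for THRB SNOWBALL_045006_st, runs from -0.22 to 1.16.

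Within the males, TRHDE and THRA separated the feed efficiency groups in opposite directions, but neither the test within males nor that of the difference between the sexes passed the threshold for any member. Among the 3 high and 3 low males, TRHDE SNOWBALL_007385_st lay between 5.22 and 5.54 in the high pigs and between 5.58 and 5.77 in the low pigs. TRHDE SNOWBALL_040324_st lay between 4.58 and 4.91 in the high males and between 5.0 and 5.24 in the low males. Both TRHDE probe sets were thus higher in each low male than in any high male, by 0.24 ± 0.13 (SE) and 0.37 ± 0.21 (SE), with limma adjusted p-values of 0.630 and 0.650. THRA went the other way: SNOWBALL_014562_st lay between 10.68 and 10.75 in the high males and between 10.41 and 10.63 in the low males. Its difference was -0.18 ± 0.11 (SE), and that of SNOWBALL_014500_s_st was -0.15 ± 0.11 (SE), with limma adjusted p-values of 0.659 and 0.708. THRB SNOWBALL_015185_st was also lower in each low male, at 7.30 to 7.39 against 7.40 to 7.44. The other THRB probe sets overlapped in males and were not lower in the low males. Their means in high and low males were 6.62 and 6.69 for SNOWBALL_027474_st, 6.17 and 6.17 for SNOWBALL_022033_st, and 6.02 and 6.15 for SNOWBALL_045006_st. In all, 2 of 13 member probe sets were free of overlap with the low males higher and 3 with the low males lower, where 6.68% and 7.61% of tested probe sets were so. Within males limma called 3 of 35791 probe sets (0.00838%), none of them a member, and 8.82% had an unadjusted p below 0.05, as did 0 of the 13. With 3 against 3 an exact permutation test cannot go below 0.1.

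The 3 high and 3 low females showed no such separation: 0 of 13 member probe sets were free of overlap, against 4.31% of tested probe sets with the low females higher and 4.33% with them lower. TRHDE SNOWBALL_007385_st differed by 0.07 ± 0.13 (SE) in females and THRA SNOWBALL_014562_st by -0.03 ± 0.11 (SE), and none of the 13 had an unadjusted p below 0.05, against 4.18% of the table. The interaction of feed efficiency and sex was -0.17 ± 0.19 (SE) for that TRHDE probe set and 0.15 ± 0.15 (SE) for that THRA probe set. The lowest limma adjusted p of the interaction among the 13 was 0.910, and 0 of 35791 probe sets passed it (0%), with 2174 (6.07%) at an unadjusted p below 0.05.

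The feed efficiency difference of 1 tested TRHDE probe set had opposite signs in the runs of pig identifiers, but its interaction with the run did not pass the threshold. In the lower run, SNOWBALL_040324_st read 4.44 to 4.91 in the 4 high pigs and 5.0 to 5.24 in the 4 low pigs, an order without overlap that 2.52% of tested probe sets shared. In the upper run the order was reversed, with 5.31 and 5.36 in the high pigs and 5.11 and 5.25 in the low pigs. The difference was 0.44 ± 0.12 (SE) in the lower run and -0.16 ± 0.15 (SE) in the upper run, with limma adjusted p-values of 0.490 for the lower run and 0.663 for the interaction of feed efficiency and run, -0.60 ± 0.19 (SE). Opposite separations in the runs were found in 401 of 35791 probe sets (1.12%), and the interaction with the run, chosen after the values were seen, passed the threshold for 0 (0%) and an unadjusted p below 0.05 for 2468 (6.9%). With the run as a term the difference of this TRHDE probe set stayed at 0.24 ± 0.12 (SE; limma adjusted p 0.817). The brightest TRHDE probe set, SNOWBALL_007385_st, did not change sign between the runs. Its high and low means were 5.49 and 5.66 in the lower run and 5.65 and 5.77 in the upper run, with overlap in both. Its interaction with the run was -0.05 ± 0.21 (SE; limma adjusted p 0.974). In the upper run, with 2 pigs against 2, the low pigs were free of overlap and lower in 3 of 13 member probe sets (17.1% of tested probe sets) and higher in 2 of 13 (15.8%). TRH was lower, with 7.81 and 8.02 in the high females against 7.61 and 7.70 in the low females, a difference of -0.26 ± 0.16 (SE), and its difference in the lower run was 0.02. THRA SNOWBALL_014500_s_st was lower too, by -0.15 ± 0.16 (SE), and DIO2 SNOWBALL_028875_st and SNOWBALL_043583_st were higher, by 0.37 ± 0.17 (SE) and 0.74 ± 0.33 (SE). The limma adjusted p was 0.989 for each of these 4 probe sets.

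**Figure D3:**
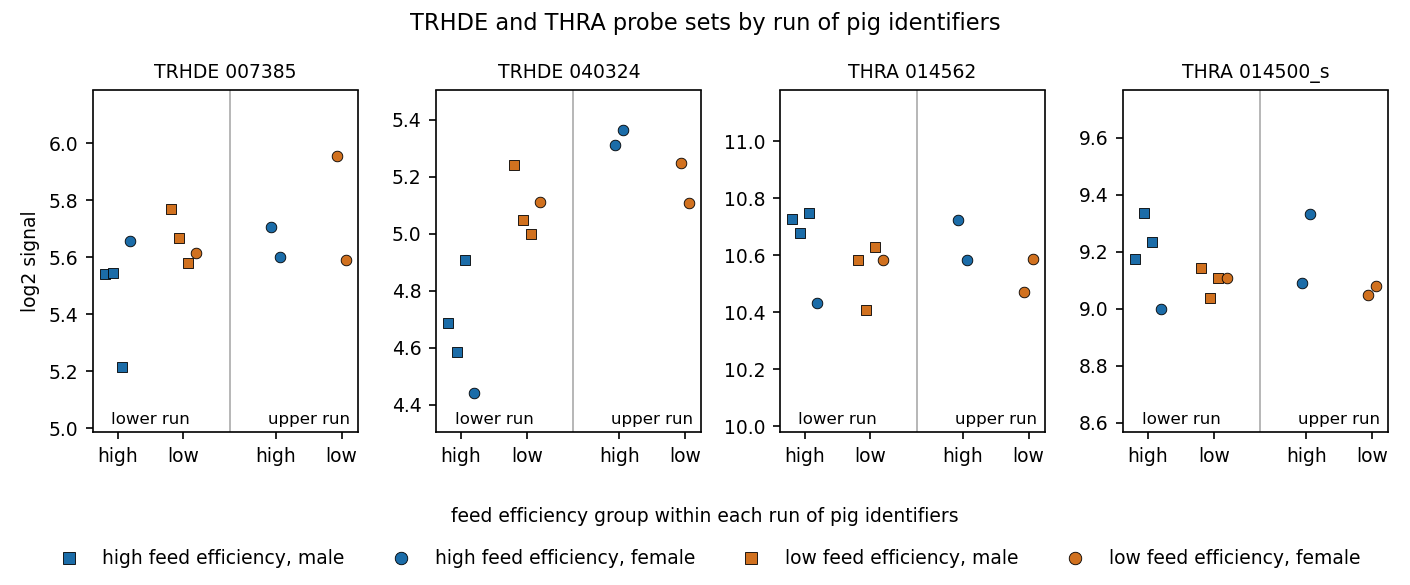
Log2 signal of the TRHDE and THRA probe sets in each pig, split by sex and run of pig identifiers and by feed efficiency group. Low males stand above high males for TRHDE and below them for THRA, and the upper-run females do not repeat the TRHDE order for SNOWBALL_040324_st.

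Sex itself, tested with feed efficiency as a term, separated none of the members at the threshold, where 8 of 35791 probe sets (0.0224%) passed. DIO2 gave the 2 member probe sets with an unadjusted p below 0.05, and they went in opposite directions, against 4.74% of the table. The difference was above 0 in 7 of the 13 and in 52% of the table. The female-minus-male difference was -0.41 ± 0.17 (SE) for SNOWBALL_028875_st and 0.35 ± 0.14 (SE) for SNOWBALL_036715_st, each with a limma adjusted p of 0.996. With the run as a term the latter was 0.10. Its values lay between 2.64 and 3.04 in the upper run, all females, and between 1.92 and 2.56 in the lower run. How many of all tested probe sets differed so between the runs was not counted, and this probe set was dim.

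Covariation across the 12 pigs was examined for the 10 pairs of genes, with the brightest probe set of each. Pearson's r ran from -0.59 to 0.53, and no pair passed the Benjamini-Hochberg threshold over the 10 pairs. The degrading enzyme and the alpha receptor had the lowest r: TRHDE and THRA gave r = -0.59 (permutation p = 0.0390, adjusted 0.379) and rho = -0.68 (permutation p = 0.0189, adjusted 0.189). The relation rests partly on a few pigs, since r was -0.33 without high replicate 3 and low replicate 5. It was -0.66 in the males, -0.33 in the females and -0.38 with the means of feed efficiency and sex removed.

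The receptors had the highest r: THRA and THRB gave r = 0.53 (permutation p = 0.0758, adjusted 0.379) and rho = 0.57 (permutation p = 0.0555, adjusted 0.277). With each gene's probe sets averaged, r was -0.0104. For the brightest probe sets, r was 0.66 without low replicate 2 and high replicate 3, and 0.34 without high replicate 4 alone. It was 0.98 in the 6 high pigs (exact permutation p = 0.00556) and -0.28 in the 6 low pigs. Among the high pigs, high replicate 4 was the lowest in both receptors, at 10.43 and 7.13. Over the 40 correlations computed within sexes and groups, the r of 0.98 had an adjusted p of 0.167. DIO2 and THRA gave r = -0.34 over all pigs and -0.95 in the low pigs (exact permutation p = 0.00833, adjusted 0.167). Without low replicates 2 and 3, the r over the other pigs was -0.00341. TRH and DIO2 gave 0.08 over all pigs. Their r was 0.86 in the high pigs (exact permutation p = 0.0431, adjusted 0.542) and -0.73 in the low pigs (exact permutation p = 0.0958, adjusted 0.767). The differences between the groups' correlations were not tested. TRH and THRA gave r = 0.29 (permutation p = 0.372, adjusted 0.694), and 0.82 without high replicates 6 and 1.

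**Figure D4:**
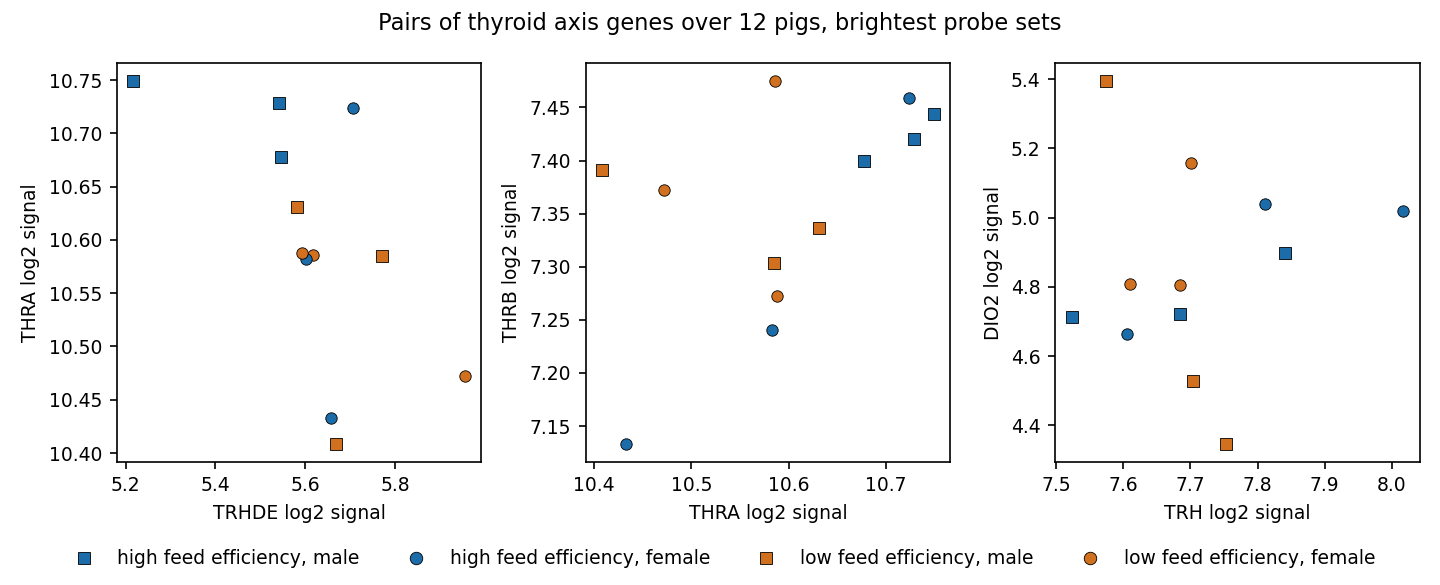
Log2 signals of pairs of genes plotted against each other, a point per pig, by feed efficiency group and sex. With the brightest probe sets, TRHDE and THRA fall along a downward slope (r = -0.59) and THRA and THRB along an upward slope (r = 0.53). With each gene's probe sets averaged, the r of THRA and THRB was -0.0104. TRH and DIO2 slope up in the high pigs (r = 0.86) and down in the low pigs (r = -0.73). None of these correlations passed after adjustment.

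Probe sets of the same gene agreed only in part. The 2 probe sets of THRA gave r = 0.58 (permutation p = 0.0467) and rho = 0.61, the 3 pairs of TRHDE probe sets r from 0.38 to 0.44, the 10 pairs of DIO2 from -0.26 to 0.66 and the 6 pairs of THRB from -0.15 to 0.42. Of these 20 pairs 0 passed after adjustment, the lowest adjusted p being 0.422. For DIO2 and THRB a value of the brightest probe set therefore need not hold for the other probe sets of the gene.

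Other genes whose signals followed a member most closely were ranked by Pearson's r over the 12 pigs after the means of feed efficiency and sex were removed, out of 12604 genes. The highest r of many genes over so few pigs is large whatever the gene, so no p is given. For TRH they were GPR37L1 (r = 0.95), an orphan G protein-coupled receptor of glia, ASCC1 (0.94) and NPAS2 (0.91), a transcription factor of the circadian clock. For TRHDE they were GNPDA2 (0.90), SRP9 (0.90) and MIA3 (0.88). DIO2 was followed by FAM126A (0.94), PLEKHF2 (0.91) and COG3 (0.91). THRA was followed by PTPN1 (0.90), a tyrosine phosphatase acting on the insulin and leptin receptor pathways, KLHL12 (0.89) and CPT2 (0.88), an enzyme of mitochondrial fatty acid import. THRB was followed by KCNG3 (0.90), a potassium channel subunit, CIDEC (0.90), a lipid droplet protein, and HPSE2 (0.89). Of all these genes, only GPR37L1 (mean 8.20) and ASCC1 (8.07) had mean signals above the highest background probe set. KCNG3, CIDEC and HPSE2 were dim, at 3.37, 3.93 and 4.37. Without removal of the means, r was lower for some genes, such as ASCC1 (0.75) and CPT2 (0.65).

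Around the 5 genes, 56 other genes of the axis were described as lists, of which 53 were tested and the others were too dim to be tested. Only 22 of the 56 had a mean signal above the highest background probe set. The rest lay inside the background range, among them QPCT, TTR, SLCO1C1, SLC16A10, DIO1, DIO3, TRHR, CGA and RASD2. For those genes a difference is one of signal and need not be one of the transcript. The feed efficiency test called 0 of the 53. Of them 25 had a difference above 0, the median was -0.01 and 3 (5.66%) had an unadjusted p below 0.05, against 6.15% of the whole table. The lowest limma adjusted p among them was 0.796.

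For the synthesis and processing of TRH and for paraventricular neurons, 0 of 9 tested genes passed, 2 of 9 were above 0 and the median was -0.03. QPCT, the glutaminyl cyclase that forms the pyroglutamyl end of TRH, read 6.13 ± 0.18 in the high and 5.84 ± 0.19 in the low pigs (SD, n = 6 each). Its difference was -0.29 ± 0.11 (SE), with a limma adjusted p of 0.796. PCSK2, a convertase that cuts hormone precursors, differed by -0.05 ± 0.08 (SE), and CREB1, a transcription factor that acts on the TRH promoter, by 0.13 ± 0.09 (SE). ARNT2, a partner of SIM1 in the making of these neurons, differed by -0.03 ± 0.06 (SE).

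For transport and metabolism of thyroid hormone, 0 of 11 genes passed, 5 of 11 were above 0 and the median was -0.02. TTR, a thyroxine carrier secreted by the choroid plexus, differed by 0.53 ± 0.41 (SE), with a range from 5.95 to 8.10 in the high pigs and from 6.83 to 8.80 in the low pigs. Its difference came to 0.16 without low replicate 5. SLCO1C1, a thyroxine transporter of the blood-brain barrier, differed by 0.24 ± 0.18 (SE), and SLC16A10, a transporter of aromatic amino acids and thyroid hormone, by -0.02 ± 0.11 (SE). The subunits of amino acid transporters that also carry thyroid hormone, SLC3A2 and SLC7A8, differed by -0.16 ± 0.11 (SE) and -0.12 ± 0.07 (SE). DIO3, the deiodinase that inactivates thyroid hormone, differed by -0.10 ± 0.10 (SE). DIO1, the type 1 deiodinase, differed by 0.13 ± 0.07 (SE) at a dim 2.59 and 2.73, and CRYM, a cytosolic binding protein of triiodothyronine, by -0.06 ± 0.12 (SE). The limma adjusted p of these 8 genes was 0.813 or higher.

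For the pituitary and thyroid side, 0 of 4 tested genes passed, 1 of 4 was above 0 and the median was -0.03. TRHR, the TRH receptor, read 4.77 ± 0.28 and 4.73 ± 0.27 (SD, n = 6 each), a difference of -0.04 ± 0.16 (SE). CGA, the shared subunit of the pituitary glycoprotein hormones, differed by -0.39 ± 0.44 (SE), and by 0.01 without high replicate 5. EYA3, a co-activator of the thyrotropin gene in the pars tuberalis of seasonal mammals, differed by 0.19 ± 0.09 (SE; limma adjusted p 0.813), and PGPEP1, a peptidase that removes pyroglutamyl residues, by -0.02 ± 0.11 (SE). TSHB, the specific subunit of thyrotropin, was too dim to be tested, at 1.5 and 1.43, as was POU1F1, at 2.38 and 2.34. TSHR, the thyrotropin receptor, was not analysed here.

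For the partners of the receptors, 0 of 11 genes passed, 9 of 11 were above 0 and the median was 0.02. NCOA3, a nuclear receptor co-activator, differed by 0.14 ± 0.08 (SE), TBL1XR1, a subunit of the co-repressor complex, by 0.15 ± 0.13 (SE), EP300, a histone acetyltransferase, by 0.07 ± 0.11 (SE) and RXRG, a heterodimer partner of the receptors, by -0.06 ± 0.11 (SE). For genes that respond to thyroid hormone, 0 of 18 passed, 8 of 18 were above 0 and the median was -0.02. RASD2, a small GTPase of the striatum induced by thyroid hormone in rodents, differed by -0.25 ± 0.10 (SE) and NRGN, a postsynaptic calmodulin-binding protein, by -0.25 ± 0.13 (SE). SEMA7A, a membrane-anchored semaphorin, differed by 0.19 ± 0.08 (SE) and ITGA7, an integrin subunit, by -0.46 ± 0.24 (SE). The limma adjusted p of these genes of both lists was 0.796 or higher.

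**Figure D5:**
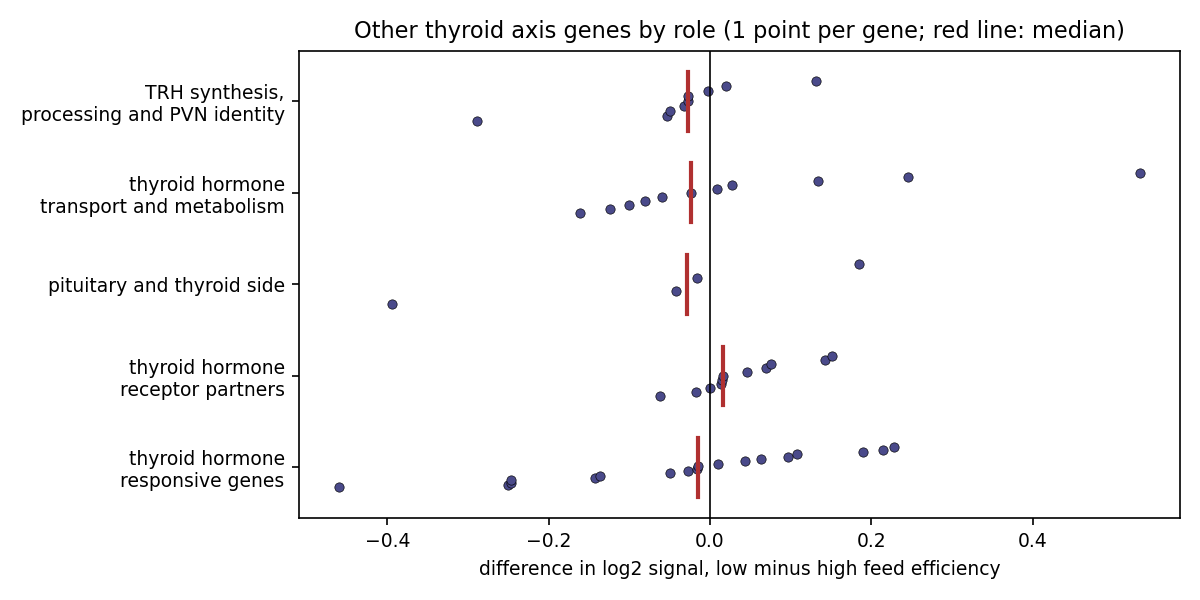
Low-minus-high feed efficiency difference in log2 signal for each tested gene of the 5 lists of the thyroid axis, a point per gene, with the list medians. The medians lie between -0.03 and 0.02, and no gene passed the adjusted threshold.

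The makeup of the tissue pieces was read from marker lists. The mean of the 9 neuron markers was 8.39 in the high feed efficiency pigs (8.29 to 8.51) and 8.52 in the low pigs (8.44 to 8.58), with overlap. Of these markers 0 of 9 passed the feed efficiency test. Their differences were above 0 in 8 and below 0 in 1, with a median of 0.09, where 49.4% of the whole table was above 0. The mean of the 10 astrocyte markers was 9.82 in both groups, and the 9 tanycyte and ependymal markers averaged 6.36 and 6.41. The low-minus-high difference of the list mean was -0.06 for paraventricular and hypothalamic markers, with 3 of 10 above 0 and 7 below. It was -0.06 for oligodendrocyte, 0.11 for choroid plexus, 0.07 for anterior pituitary, 0.02 for thalamus, 0.02 for microglia and 0.01 for endothelial markers. The differences of the list means were not tested. The brightest probe sets of the 5 genes were set against the means of 10 marker lists, 50 pairs in all, and 0 passed after adjustment, the lowest adjusted p being 0.988. The 1 pair with an unadjusted permutation p below 0.05 was TRHDE with the endothelial markers (r = -0.64, permutation p = 0.0319, rho = -0.32), and r was -0.37 without the 2 pigs farthest from the median. TRH and the thalamus markers gave r = 0.58 (permutation p = 0.0550) and rho = 0.48, and 0.20 without such pigs. TRH and the neuron markers gave r = -0.56 (permutation p = 0.0593) and rho = -0.41, and -0.15 without such pigs. The part of cell makeup in the differences of the 5 genes was not tested.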

How the data were processed

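Hypothalamus RNA of 12 pigs was measured with 1 array per pig. The values deposited by the authors were taken as log2 signals because of their range, and the submitters' processing notes name GCOS 1.1.1. The sources used here do not state background correction, summary method or normalization, so folds assume a log2 scale. Each array was taken as a separate pig from its identifier.

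Of 47845 rows, 123 control rows were left out, and then the dimmest 25 percent of probe sets by mean over all arrays, which left 35791. With limma 3.58.1 (R 4.3.3; lmFit and eBayes) tests were run for feed efficiency with sex as a term, sex with feed efficiency as a term, and their interaction in a fit of the 4 groups, with Benjamini-Hochberg adjustment over all tested probe sets. The feed efficiency difference within each sex and its exact permutation within sex were alternatives. Permutation tests of correlations drew 100000 resamples over 12 pigs and were exact over 6. A gene of a list was represented by its brightest probe set. Gene symbols came from the platform annotation, in which 26426 probe sets had 1 symbol and 21296 had none. The fits were tested on simulated data. The number of arrays limits the precision.

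The rule for named genes took every probe set of the 5 genes, per list up to 4 genes with the smallest unadjusted p, 11 genes of the axis whatever their values, and per member the 3 genes with the highest centred r. The members and lists were chosen with earlier results of these data known. Alternatives were other filters, normalizations, fits and covariates, a run of pig identifiers, averaged probe sets and each pig left out. Some genes of the lists are not reported here.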

Additional observations from a re-analysis of the deposited data

Results flagged for a closer look

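In 30 groups of 6 pigs, the 15 member probe sets in each feed efficiency group, the gap of the most distant pig was set against the range of its group, and 2 exceeded Dixon's critical value of 0.625. Chance marks about 1 in 20 groups. High replicate 3, a male, had a TRHDE signal of 5.22 on SNOWBALL_007385_st, below the other high feed efficiency pigs. Low replicate 3, a male, had a DIO2 signal of 1.92 on SNOWBALL_036715_st, below the other low pigs.

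The feed efficiency difference of TRHDE SNOWBALL_040324_st was 0.44 in the lower run of pig identifiers and -0.16 in the upper run. The difference between runs was -0.60 ± 0.19 (SE), with a limma adjusted p of 0.663. Every low pig of the lower run stood above its high pigs, and every low pig of the upper run below its high pigs. The upper run holds females only. For the brightest TRHDE probe set, SNOWBALL_007385_st, the low pigs had the higher mean in both runs.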

How the results depend on the processing

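No member probe set passed the threshold under any alternative: the lowest limma adjusted p among the 13 was 0.490 for feed efficiency (25 alternatives, in the lower run of pig identifiers), 0.648 for the interaction with sex (19) and 0.918 for sex (21). No paired analysis was possible because the replicate numbers were given in accession order and the labels pair no pigs. The alternatives for feed efficiency covered the members, the other named genes and the count of called probe sets. The counts that follow do not include the settings with a pig left out, whose ranges come further on. Those settings turned signs too, in 7 of 12 for DIO2 SNOWBALL_020911_s_st and 6 of 12 for DIO2 SNOWBALL_036715_st. In the other alternatives, 429 values kept their direction and their side of the threshold, or kept the count. Another 29 changed sign without passing the threshold, and the cause was not tested. Within males the sign turned for THRB SNOWBALL_015185_st (-0.0774), DIO2 SNOWBALL_036715_st (-0.00993), SLC16A10 (0.14) and TTR (-0.40), and limma called 3 probe sets. Within females it turned for DIO2 SNOWBALL_020911_s_st (0.0156), THRB SNOWBALL_027474_st (-0.0155), RXRG (0.0868) and PGPEP1 (0.14). In the lower run it turned for TRH (0.0154), DIO2 SNOWBALL_020911_s_st (0.0190) and SNOWBALL_028875_st (-0.0408), SLC16A10 (0.0164), CRYM (0.0318) and TTR (-0.0735). In the upper run it turned for THRB SNOWBALL_015185_st (-0.0270) and SNOWBALL_027474_st (-0.0130), DIO2 SNOWBALL_036715_st (-0.0451), TRHDE SNOWBALL_040324_st (-0.16), RXRG (0.0139), TRHR (0.00669), ARNT2 (0.0352), TBL1XR1 (-0.0534), PGPEP1 (0.21) and EP300 (-0.0777). DIO2 SNOWBALL_020911_s_st, at nearly 0, gave 0.00914 after quantile normalization, 0.0190 with arrays centred on their medians and 0.0400 for averaged probe sets, SLC16A10 gave 0.00391 after quantile normalization and PGPEP1 0.00613 with centred arrays. The interaction of DIO2 SNOWBALL_020911_s_st with sex turned to -0.0118 with centred arrays and to -0.0106 for averaged probe sets. With the run as a term, and equally within the lower run, the sex difference turned for TRH (-0.0348), DIO2 SNOWBALL_020911_s_st (-0.0318), THRB SNOWBALL_027474_st (0.0347) and TRHDE SNOWBALL_040324_st (-0.14). For sex, limma called 2 probe sets with the dimmest 50 percent left out, 5 with the run as a term and 4 in the lower run, against 8. Among correlations, averaging a gene's probe sets turned TRH with TRHDE (0.32), TRH with DIO2 (-0.13), TRH with THRB (0.0805), TRHDE with THRB (0.23) and THRA with THRB (-0.0104), and TRH with THRB was 0.0658 with feed efficiency and sex means removed and 0.0828 with centred arrays. Leaving out each pig in turn, the feed efficiency difference ran from -0.14 to 0.0901 for DIO2 SNOWBALL_020911_s_st, from -0.0324 to 0.0399 for THRB SNOWBALL_015185_st, from -0.0248 to 0.0653 for THRB SNOWBALL_027474_st, from -0.0245 to 0.19 for DIO2 SNOWBALL_028875_st and from -0.0635 to 0.11 for DIO2 SNOWBALL_036715_st. It ran from -0.13 to 0.00798 for RXRG, -0.72 to 0.0108 for CGA, -0.11 to 0.0313 for SLC16A10, -0.17 to 0.0115 for CRYM, -0.15 to 0.0608 for TRHR and -0.0957 to 0.0525 for PGPEP1, and the count of called probe sets from 0 to 1, the 1 without low replicate 2. The interaction with sex ran from -0.17 to 0.36 for DIO2 SNOWBALL_020911_s_st, -0.10 to 0.35 for SNOWBALL_028875_st, -0.16 to 0.23 for SNOWBALL_036715_st and -0.16 to 0.38 for SNOWBALL_043583_st, and from -0.18 to 0.0209 for THRB SNOWBALL_027474_st. The sex difference ran from -0.0286 to 0.0841 for THRB SNOWBALL_022033_st, -0.0477 to 0.0424 for SNOWBALL_027474_st and -0.39 to 0.11 for SNOWBALL_045006_st, and its count of calls from 7 to 10. The r of TRH and TRHDE ran from -0.28 to 0.0752, of TRH and DIO2 from -0.0885 to 0.37, of TRH and THRB from -0.27 to 0.36, of TRHDE and DIO2 from -0.0145 to 0.37 and of TRHDE and THRB from -0.31 to 0.00436. The signals of TRHDE, DIO2 and THRB lie inside the background range, and the lowest TRH signal lies just above it. This limits what the differences of these genes say of the transcripts.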

Other observations

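The spread of the members within a feed efficiency group was not always alike. TRH had an SD of 0.18 among the high pigs and 0.07 among the low pigs, and TRHDE SNOWBALL_040324_st 0.38 and 0.10. DIO2 SNOWBALL_020911_s_st went the other way, at 0.17 and 0.39. The differences in spread were not tested.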
